A study of Mus musculus with 32 samples.

Results

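The lung RNA-seq libraries of a mouse study of cisplatin were analysed, 4 libraries of the 32 in the series and of its 16 RNA-seq libraries. The study measured cisplatin damage, its repair and RNA in kidney, liver, lung and spleen. The lung libraries were chosen by their labels as RNA-seq of lung, 2 from mice given cisplatin and 2 from control mice. All mice were wild-type C57BL/6J females aged 6 to 7 months. Treated mice received 10 mg of cisplatin per kg of body weight in a single intraperitoneal injection at ZT1, counted in hours from lights on, and were killed at ZT5, and control mice were injected with the same volume of 154 mM saline. The study states that gene expression was measured 4 h after treatment. The labels give 2 h for every RNA-seq library, which differs from that time and from the interval between ZT1 and ZT5. The RNA was poly-A selected and was sequenced as 50-bp read pairs. Neither the number of mice behind each library nor the trimming of neighbouring tissue is stated in the sources used here.

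Cisplatin is a platinum drug that cross-links neighbouring guanines in DNA. Such an adduct on the transcribed strand halts RNA polymerase II, so a transcript can be cut short before the polymerase reaches the end of the gene, and long genes present more places where this can happen. Damaged cells also stabilise the transcription factor p53, which turns on genes for cell cycle arrest and cell death. The lung itself is built of alveolar type 1 cells, which exchange gas, alveolar type 2 cells, which secrete surfactant, airway epithelium and a dense capillary bed. Thymus, lymph nodes, fat and heart lie next to it in the chest and carry marker genes of their own.

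The 4 lung libraries held 51605570 and 162270280 reads on genes with cisplatin and 27662355 and 77013005 reads in the controls. The 2 controls were far closer to each other than the cisplatin libraries were. An index of their difference, chi-square per degree of freedom, was 2.75 over all genes with at least 20 reads, where sampling of read pairs counted as 2 reads each gives 2. It was 2.00 in genes with 20 to 100 reads, 2.58 in genes with 2000 to 10000 and 5.43 in the 2367 genes with more. The same index was 89.3 between the 2 cisplatin libraries and between 105 and 366 between a control and a cisplatin library. The study describes its replicates as biological, yet at an index of 3 or below the control libraries were summed and counted as 1 sample, and the spread between control lungs is not known from these data. Lung was compared inside a fit over 14 samples of lung, kidney, liver and spleen (6 residual degrees of freedom), which assumes that the lone control varies like the other groups. The edgeR p-values below rest on that shared spread unless the lung libraries alone are named. Fits on the lung libraries alone with the controls summed, DESeq2 included, set 2 libraries against 1 with 1 residual degree of freedom and assume that the lone control varies like the cisplatin pair. Values are CPM, the counts of a gene scaled to a fixed total of reads on genes with TMM factors, a fold change is log2 of cisplatin over control with its standard error, and a gene is called when its change exceeds 0.4 in log2 at an adjusted p under 0.05 by edgeR. "Rose" and "fell" are used only for called genes. In bulk tissue, fewer cells of a type and less RNA per cell cannot be told apart.

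The labels of control and cisplatin in lung and spleen RNA-seq were exchanged by a correction of the record, and the present labels were used. Cdkn1a (ENSMUSG00000023067, chromosome 17, 29090976 to 29100727 of GRCm38), which encodes the p53-induced cell cycle inhibitor p21, was at 498 and 589 CPM in the lung libraries labelled cisplatin and at 150.4 and 144 CPM in those labelled control. Kidney, whose labels were not exchanged, had 436 and 482 CPM with cisplatin and 14.4 and 31.1 CPM without, and liver had 119.8 and 226 CPM against 5.85 and 35.7 CPM. In all 3 organs both libraries labelled cisplatin were above both controls, so Cdkn1a does not go against the present labels of lung.

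In lung 74 of 15332 genes tested fell with cisplatin (0.483%) and 0 rose (0%) by edgeR, with 118 genes higher and 1055 lower at an unadjusted p under 0.05 in the same test. DESeq2 on the lung libraries alone, with the controls summed, called 50 genes higher (0.303% of those with an adjusted p) and 466 lower (2.82%). Among the genes that fell were 5 of 15 B cell markers, 2 of 14 fat markers and 35 genes that span at least 200 kb. The median over all genes tested was 0.01 in log2. With either cisplatin library left out, edgeR called 0 genes, with 911 genes at an unadjusted p under 0.05 without the first library and 732 without the second, so every call rests on having both. With the control pairs kept as 2 samples edgeR called 42 higher (0.274%) and 582 lower (3.79%), and on the lung libraries alone with the pair kept apart 263 higher (1.71%) and 1306 lower (8.51%).

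The control lung libraries held RNA of brown fat that was scarce in the cisplatin libraries. Ucp1, the uncoupling protein that produces heat in brown fat, was at 18.5 and 0.544 CPM with cisplatin and at 315 and 304 CPM in the controls, a log2 change of -5.03 ± 1.51 (adjusted p = 0.272). Cidea, a lipid droplet protein of brown fat, was at 10.3 and 6.53 CPM against 145 and 143 CPM (-4.10 ± 0.90, adjusted p = 0.1). For both genes the cisplatin libraries lay far below the controls, and for Ucp1 the 2 cisplatin libraries also stood far apart from each other. Of 11 brown fat markers 9 were tested, and in all 9 both cisplatin libraries were below both controls, which held for 35.7% of all genes tested. Their median change was -3.35, and their summed level was 45.3 to 87.1 CPM with cisplatin and 700 to 711 CPM in the controls. By edgeR 0 of the 9 were called, with 7 lower at an unadjusted p under 0.05 and 5 called lower by DESeq2 with the controls summed.

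General fat markers differed in the same direction, and 2 of 14 fell, with a median of -2.93. Gpd1, the cytosolic glycerol-3-phosphate dehydrogenase, was at 64.1 and 41 CPM with cisplatin and at 575 and 548 CPM in the controls and fell, with a log2 change of -3.40 ± 0.59 (adjusted p = 0.0435). Acacb, the acetyl-CoA carboxylase of the mitochondrial surface, went from 127 and 123 CPM in the controls to 15.3 and 15.1 CPM, a change of -3.03 ± 0.45 (adjusted p = 0.0253). Adipoq, which encodes the fat hormone adiponectin, was at 25.4 and 10.1 CPM against 128 and 129.8 CPM but was not called (-2.87 ± 1.44, adjusted p = 0.803). The list summed to 308 to 591 CPM with cisplatin and to 3006 to 3049 CPM in the controls. The same list had a median of -0.43 in kidney and 0.23 in liver.

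Genes of the thymus and of lymphoid tissue were also lower with cisplatin. Rag1, the recombinase of developing lymphocytes, was at 1.36 and 4.3 CPM against 44.1 and 49.1 CPM (-4.06 ± 0.68, adjusted p = 0.0743), and Dntt, the terminal transferase of the same cells, was at 0.519 and 1.57 CPM against 15.3 and 16.7 CPM (adjusted p = 0.15). Dntt was also at 9.88 and 18.0 CPM in the liver controls and at 7.4 and 71.6 CPM in liver with cisplatin, where Rag1 had 0 CPM. Reads on Dntt are thus not confined to lymphoid tissue in this series. The thymocyte list summed to 5.38 to 9.22 CPM with cisplatin and to 75.6 to 84.5 CPM in the controls, with a median of -3.40. By edgeR 0 of its 5 tested genes were called, 5 were lower at an unadjusted p under 0.05, and DESeq2 called 3 lower. Glycam1 (ENSMUSG00000022491, chromosome 15, 103562759 to 103565081 of GRCm38), a ligand that high endothelial venules of lymph nodes show to passing lymphocytes, was at 0.346 and 0.087 CPM with cisplatin and at 156 and 160.2 CPM in the controls. Its fall was the largest of the 74 called genes by log2 change (-9.75 ± 1.70, adjusted p = 0.0412), and it was the only 1 of 3 tested venule markers to be called.

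Among 15 B cell markers 5 fell, and the median was -1.82. Of the 15, 13 were below both controls, as were 35.7% of all genes tested. Ighd, the constant region of immunoglobulin D on naive B cells, was at 19.1 and 12.3 CPM against 155 and 157 CPM (-3.32 ± 0.47, adjusted p = 0.0213). Cr2, the complement receptor of follicular B cells, was at 5.96 and 3.38 CPM against 31.9 and 34.6 CPM (-2.87 ± 0.36, adjusted p = 0.0191). Pax5, the factor that fixes B cell identity, was at 10.9 and 8.07 CPM against 46.2 and 48.3 CPM, and Spib, another B cell factor, at 13.5 and 9.45 CPM against 42 and 39.8 CPM (changes of -2.33 and -1.82, adjusted p = 0.0412 and 0.0335). Ighm, the constant region of immunoglobulin M, stood apart from the called members, with 2999 and 1760.1 CPM against 2147 and 2173 CPM. Because Ighm makes up most of the list's reads, the summed level of 1939 to 3228 CPM with cisplatin spanned the 2928 to 2974 CPM of the controls. In kidney the same list had a median of -1.39 and 4 of 15 fell (2.17% of all genes fell there), and in liver the median was -0.45.

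T cell markers had a median of -1.59, with 15 of 16 below both controls (35.7% of all genes tested) and 1 called. That gene was Cd8a, the co-receptor of cytotoxic T cells, at 6.82 and 5.54 CPM against 29.3 and 31 CPM (-2.31 ± 0.32, adjusted p = 0.0213). Cd3e, part of the T cell receptor complex, was at 6.32 and 4.72 CPM against 23.6 and 21.9 CPM but was not called (-2.02 ± 0.59, adjusted p = 0.261). In both kidney and liver the T cell list had a median of -0.30. The list summed to 128 to 147 CPM with cisplatin and 396 to 399 CPM in the controls.

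Muscle genes stood the other way. Myh6, the heavy chain of atrial and adult mouse heart myosin, was at 96.9 and 77.6 CPM with cisplatin and 39.6 and 38.3 CPM in the controls (1.17 ± 0.61, adjusted p = 0.894), and Actc1, cardiac actin, was at 103 and 63.7 CPM against 53.9 and 52.4 CPM. Skeletal muscle genes summed to 157 CPM in the first cisplatin library and to 15.8 to 19.1 CPM in the other 3 libraries. Acta1, skeletal actin, was at 52.5 and 0.29 CPM in the first and second cisplatin library and at 1.16 and 0.522 CPM in the controls, and Tnnt3, fast troponin T, at 23 and 1.65 CPM against 0.616 and 1.21 CPM. Ttn, the giant spring protein of the sarcomere, was at 13.4 and 9.91 CPM against 7.03 and 7.07 CPM. Of 14 muscle genes tested in both lists edgeR called 0, with 1 higher at an unadjusted p under 0.05, and DESeq2 called 1 higher.

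**Figure D1:**
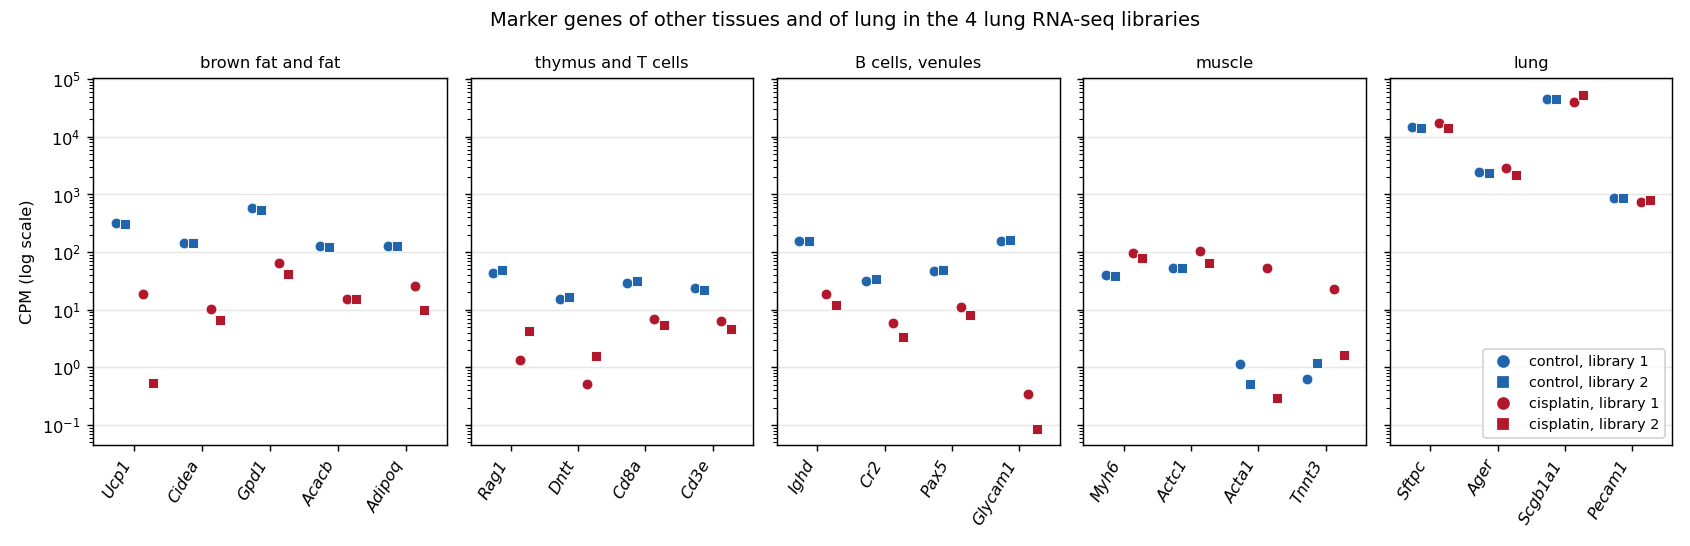
CPM on a log axis of marker genes in each lung library, with controls in blue and cisplatin in red, circles for library 1 and squares for library 2. The fat, thymus, B and T cell genes and Glycam1 sit lower in both cisplatin libraries, heart genes sit higher in both, Acta1 and Tnnt3 are high in cisplatin library 1, and the lung genes differ little.

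Genes of the lung itself differed far less. Surfactant protein C (Sftpc) was at 17507 and 14285 CPM with cisplatin and 14686 and 14395 CPM in the controls, and Sftpa1, another surfactant protein, at 3648 and 3236 CPM against 2965 and 2996 CPM. The alveolar type 1 genes Ager, a receptor on the gas-exchange surface, and Emp2, a membrane protein, were at 2923 and 2169.7 CPM and 1690.3 and 1323 CPM with cisplatin against 2432 and 2346 CPM and 1507 and 1508 CPM. Scgb1a1, the secretoglobin of club cells, had 41018 and 52954 CPM against 44899 and 45789.7 CPM, and Cyp2f2, their cytochrome P450, had 2458 and 3429 CPM against 2479 and 2449 CPM. In ciliated cells Tppp3 was at 487 and 558 CPM against 436 and 416 CPM and the ciliogenesis factor Foxj1 at 133 and 184 CPM against 142 and 133 CPM. The endothelial adhesion genes Pecam1 and Cdh5 were at 743 and 792 CPM and 753 and 671 CPM with cisplatin, against 875 and 879 CPM and 736 and 729.9 CPM. Of 71 genes in 8 lists of lung epithelium, endothelium, fibroblasts, smooth muscle and mesothelium, edgeR called 0, with 0 at an unadjusted p under 0.05, and DESeq2 called 0. The list medians lay between -0.37 and 0.46.

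Among stromal genes of those 8 lists the 2 cisplatin libraries often differed from each other. Inmt, a methyltransferase of lung fibroblasts, was at 1643 and 1021 CPM against 997 and 955 CPM, and Npnt, a basement membrane protein, at 595 and 424 CPM against 545 and 562 CPM. The smooth muscle genes Acta2 and Des stood apart in opposite directions, with 145 and 129 CPM against 203 and 196 CPM for Acta2 and 176 and 138 CPM against 99.6 and 95.3 CPM for Des. The mesothelial genes Upk3b and Msln were at 141 and 81.2 CPM and 129 and 83.9 CPM with cisplatin and at 162 and 151 CPM and 119.6 and 122 CPM in the controls, with the second cisplatin library the lowest for both.

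Blood cell lists differed in direction. Medians were -0.97 for 8 erythroid, -0.66 for 10 natural killer, -0.14 for 12 macrophage, 0.20 for 5 platelet and 0.55 for 10 neutrophil genes. Adult haemoglobin genes were lower with cisplatin, with Hbb-bs at 3081 and 2418 CPM against 5948 and 5712 CPM and Hba-a1 at 780.4 and 557 CPM against 1509.6 and 1411 CPM, and reads of such near-identical globin copies cannot be assigned with certainty. The neutrophil granule gene Ltf was at 241 and 292 CPM against 269 and 265 CPM, and S100a9, an alarmin of neutrophils, at 39 and 56.5 CPM against 22 and 23.4 CPM. The alveolar macrophage gene Chil3 was at 739 and 306 CPM against 283 and 287 CPM, and Csf1r, the receptor of macrophage growth factor, at 121 and 84.2 CPM against 106 and 106 CPM. Chil3 had the highest change of the macrophage list, in which 10 of 12 changes were negative. For natural killer cells Gzma was at 20.1 and 8.87 CPM against 15.6 and 16.1 CPM and Nkg7 at 9.41 and 5.75 CPM against 16.1 and 14.5 CPM. All 10 natural killer genes had a negative change, and 6 were below both controls (35.7% of all genes tested). The platelet genes Ppbp and Itga2b were at 57.7 and 36.2 CPM and 27.9 and 17.1 CPM with cisplatin and 49 and 51 CPM and 20.8 and 19.1 CPM in the controls.

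Plasma cell genes had no common direction. Of 8 tested 4 had a positive and 4 a negative change, with a median of 0.03 and a minimum of -1.05. Of the 8, 2 were above both controls and 3 below both, against 34.7% and 35.7% of all genes tested. Igha, the constant region of immunoglobulin A of mucosal plasma cells, was at 315 and 174 CPM with cisplatin and 29.8 and 31.1 CPM in the controls (2.99 ± 0.72, adjusted p = 0.138), both cisplatin libraries being far above both controls. Jchain, the joining chain of secreted antibodies, was at 544 and 306 CPM against 321 and 331 CPM, and Sdc1, also an epithelial gene, at 280.4 and 269 CPM against 256 and 258 CPM. Across 53 genes of 6 blood cell lists (plasma, natural killer, macrophage, neutrophil, erythroid, platelet) edgeR called 0, with 1 higher and 3 lower at an unadjusted p under 0.05, and DESeq2 called 1 higher and 1 lower. Cartilage, Schwann cell, thymic epithelium, squamous epithelium and thyroid lists held 14 tested genes with 0 called by edgeR, 0 at an unadjusted p under 0.05 and 0 by DESeq2. Among them Chad and Comp of cartilage were at 58.7 and 45.5 CPM and 0.692 and 1.89 CPM against 48.8 and 51.4 CPM and 1.63 and 1.33 CPM, Prx and Mbp of Schwann cells at 380.4 and 296 CPM and 66.9 and 60.9 CPM against 284 and 276 CPM and 80.6 and 79.1 CPM, and the thymic epithelial chemokine Ccl25 at 4.01 and 4.47 CPM against 3.99 and 3.97 CPM. The squamous genes Sbsn and Krt5 were at 6.9 and 5.3 CPM and 2.21 and 2.66 CPM against 6.05 and 6.86 CPM and 5.73 and 5.54 CPM, and thyroglobulin (Tg) at 1.81 and 1.33 CPM against 1.49 and 1.5 CPM.

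Genes were classed as spleen-high where the mean of the spleen libraries was at least 8 times that of both kidney and liver. No lung library was used for this class. It also holds blood cell genes that are not lymphoid, such as Hbb-bs, Ltf, Chil3 and Ppbp, and it leaves out Rag1 and Dntt. It therefore does not set lymphoid composition apart. Of 1147 spleen-high genes tested 23 fell (2.01%), and their median change was -0.60. Of the 14185 other genes 51 fell (0.36%), with a median of 0.03. The spleen-high genes that fell include lymphocyte regulators such as Bcl11a (3.5 and 2.99 CPM against 16.5 and 15.4 CPM), Satb1 (11 and 9.3 CPM against 44 and 47.8 CPM) and Bach2 (5.34 and 3.67 CPM against 24.8 and 25.6 CPM). Outside both this class and every marker list 48 genes fell, so the other 26 calls lie in that class or in a marker list.

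Most of the remaining falls were in very long genes. Of the 51 outside the spleen-high class, 28 span at least 200 kb from start to end (54.9%), while 5.06% of the 15325 tested genes with a position do so. Arl15 (ENSMUSG00000042348, chromosome 13, 113794505 to 114157461 of GRCm38), a small GTPase gene of 363 kb, was at 3.61 and 4.79 CPM with cisplatin and 34.4 and 32.5 CPM in the controls (-2.97 ± 0.28, adjusted p = 0.00712). Ldb2, an adaptor of LIM-domain transcription factors spanning 328 kb, was at 9.76 and 16.2 CPM against 100.1 and 102 CPM (-2.97 ± 0.35). Prkce, protein kinase C epsilon, spans 490.1 kb and was at 16.3 and 15 CPM against 112 and 113 CPM (-2.85 ± 0.43). In each of these genes both cisplatin libraries were far below both controls.

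Sox5, a transcription factor gene of 954 kb, was at 0.941 and 1.38 CPM against 10.5 and 11.5 CPM (-3.26 ± 0.48, adjusted p = 0.0242). Ntrk3, the receptor of neurotrophin-3, spans 562 kb and was at 1.73 and 0.927 CPM against 17.6 and 16 CPM (-3.65 ± 0.48, adjusted p = 0.0201). Dock1 (ENSMUSG00000058325, chromosome 7, 134670654 to 135173639 of GRCm38), which encodes an activator of the GTPase Rac, spans 503 kb and was at 24.7 and 24.5 CPM against 84.9 and 88.2 CPM. It was the only 1 of 13 genes that the study names for lung to be called (-1.83 ± 0.24, adjusted p = 0.0213). Dennd1a, a membrane traffic gene of 488 kb and another of those 13, was at 9.22 and 7.37 CPM against 27.4 and 26.4 CPM but was not called (adjusted p = 0.1). Other long genes that fell were Cdkal1, a tRNA-modifying enzyme (664 kb, 2.19 and 2.51 CPM against 15.9 and 15.2 CPM), Pitpnc1, a phospholipid transfer protein (263 kb, 36.3 and 47.8 CPM against 133 and 141 CPM), and Pde4d, a cAMP phosphodiesterase (1504 kb, 7.55 and 7.8 CPM against 21.4 and 24 CPM).

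The dependence on length ran through the whole set of tested genes. The median change was 0.15 in log2 in 4039 genes under 10 kb, 0.10 in 4898 genes of 10 to 30 kb, -0.07 in 4337 genes of 30 to 100 kb, -0.43 in 1275 genes of 100 to 200 kb and -0.84 in 776 genes of 200 kb or more. Calls made up 0.627% of genes of 100 to 200 kb and 4.51% of those of 200 kb or more, against 0.184% to 0.272% in the shorter classes. Both cisplatin libraries were below both controls in 80.5% of the longest genes and in 21.7% of the shortest. Among genes outside the spleen-high class and the marker lists the medians ran from 0.17 in the shortest to -0.83 in the longest class, nearly the same range. Within the spleen-high class they ran from -0.43 to -1.16, so these genes were lower at every length and lowest when long. Kidney had medians of 0.23 to -0.89 and liver 0.39 to -1.25 over the same classes. No test is given, since genes are not replicates.

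**Figure D2:**
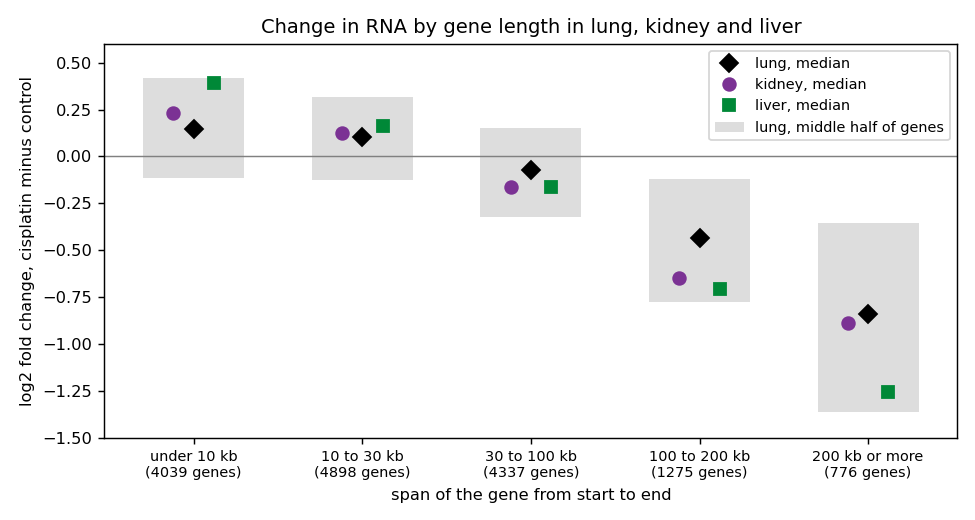
Median log2 fold change (cisplatin minus control) of tested genes in 5 classes of gene span, for lung (black), kidney (purple) and liver (green), with the middle 50% of lung genes as a grey bar. The lung median goes from 0.15 in genes under 10 kb to -0.84 in genes of 200 kb or more, and kidney and liver run the same way.

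The long genes that fell in lung mostly fell in kidney or liver as well. Of the 28 long genes outside the spleen-high class 18 fell in kidney and 25 in liver, and 26 in at least 1 of them. In all genes tested 2.17% fell in kidney and 3.12% in liver, and in all tested genes of 200 kb or more 17.4% and 31.7%. The median changes of the 28 were -2.17 in lung, -1.72 in kidney and -2.53 in liver. Of the 16 genes outside the class that span under 100 kb 1 fell in kidney or liver (Pank1, in kidney), with medians of -2.99 in lung, -0.68 in kidney and -0.16 in liver. The spleen-high genes under 100 kb that fell in lung numbered 15, of which 6 fell in kidney or liver, all of them in kidney, with medians of -2.28 in lung, -1.10 in kidney and -0.38 in liver. Organs have separate controls in this comparison, but whether the same mice gave several organs is not stated. The calls in lung, kidney and liver also share 1 estimate of spread per gene, so they are not independent. By the interaction test none of the 74 genes differed between lung and kidney (smallest adjusted p = 0.0642), with a median lung minus kidney difference of -0.72 for the 28 long genes and -2.53 for the 16 short ones, so neither set is shown to be particular to lung.

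**Figure D3:**
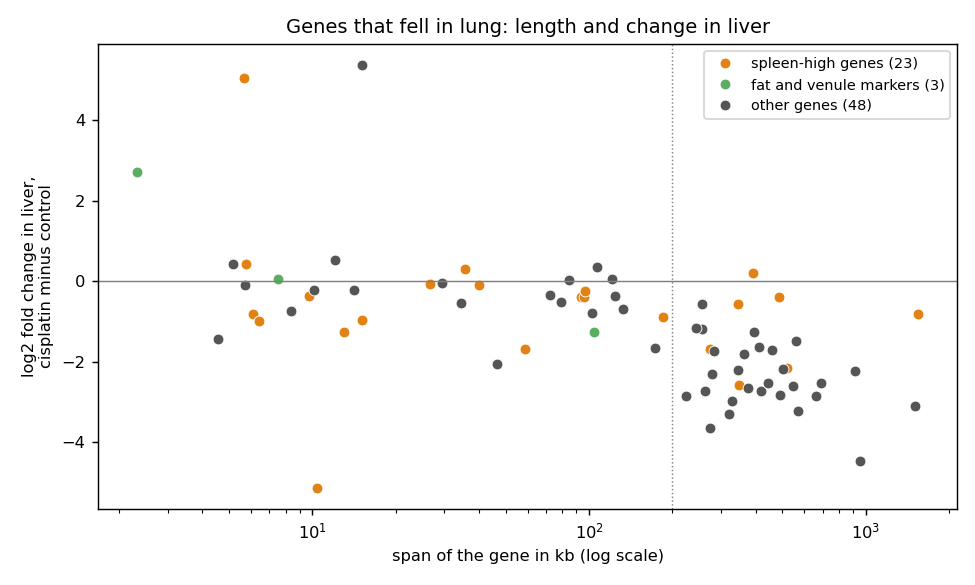
The 74 genes that fell in lung, with the span of the gene in kb on a log axis and the log2 fold change in liver (cisplatin minus control) on the vertical axis, coloured as spleen-high (23), fat and venule markers (3) and other genes (48). Of the 28 other genes right of the dotted line at 200 kb 25 fell in liver, while most shorter genes lie between -2 and 1, and the highest points at the left (Prg3, Aqp7 and Glycam1) rest on liver levels of at most 0.208 CPM.

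The 16 shorter genes outside the spleen-high class include Glycam1 and Gpd1, and those named here were chosen from the calls, with no list behind them. Aqp7, the glycerol channel of fat cells, was at 0.826 and 0.26 CPM with cisplatin and 13.2 and 12.7 CPM in the controls (-4.65 ± 0.69, adjusted p = 0.0292). Ptger3, a receptor of prostaglandin E2, was at 2.67 and 0.989 CPM against 15.6 and 16.1 CPM (-3.17 ± 0.49), and Paqr9, a membrane receptor of the progestin and adiponectin receptor family, at 2.92 and 1.5 CPM against 17 and 18.3 CPM (-3.04 ± 0.40). Coq8a, which acts in coenzyme Q synthesis, was at 23.8 and 14.2 CPM against 133 and 136 CPM (-2.83 ± 0.40). Pank1, the first enzyme of coenzyme A synthesis, was at 8.07 and 7.65 CPM against 45.1 and 45.6 CPM (-2.53 ± 0.21, adjusted p = 0.00699). Hadhb, a subunit of the enzyme of mitochondrial fatty acid oxidation, was at 60.6 and 54.8 CPM against 175 and 176 CPM, and Letmd1, a mitochondrial protein, at 24.1 and 18.8 CPM against 78.4 and 75.8 CPM. Nrg4, a growth factor secreted by brown fat, with a span of 107 kb, was at 1.88 and 1.24 CPM against 11.4 and 10.9 CPM (-2.84 ± 0.37), and Gpd2, the mitochondrial glycerol-3-phosphate dehydrogenase of 133 kb, at 33.9 and 31.3 CPM against 157 and 153 CPM. Serpina1e, Mmd2, Sost, Adtrp, Tmem229a and Sucnr1, which also fell, had changes between -5.54 and -2.85. The fat and brown fat lists summed low in the same 2 cisplatin libraries, and the part of fat tissue in their falls was not tested.

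Targets of p53 were measured as 26 genes, all of them tested. By edgeR 0 rose and 0 fell, with 5 higher at an unadjusted p under 0.05, and DESeq2 with the controls summed called 3 higher. In 21 of the 26 both cisplatin libraries lay above both controls, which 34.7% of all genes tested do, and the median change was 0.53 against 0.01 over all genes. For Cdkn1a, whose values are given above, the log2 change was 1.90 ± 0.88 (adjusted p = 0.73). It was called by DESeq2 and by edgeR on the lung libraries alone (adjusted p = 2.67e-09 and 0.0328 with the controls summed), with a range of adjusted p over all alternatives of 3.88e-30 to 1. Those fits rest on the spread of 1 pair of libraries, and in the fit over all organs a gene that missed the threshold is not shown to be unchanged.

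Among p53 targets that arrest or kill cells, Pmaip1 (Noxa, a death-promoting BCL2 family member) was at 46.9 and 61.2 CPM against 15.7 and 17.4 CPM (1.67 ± 0.70). Fas, the death receptor, was at 82.8 and 157 CPM against 52.7 and 54.7 CPM (1.14 ± 0.36), with the second cisplatin library well above the first. Trp53inp1, a p53-induced stress protein, was at 290.1 and 427 CPM against 148 and 158 CPM (1.21 ± 0.46). Bax and Bbc3, which act at mitochondria in cell death, were at 35.4 and 33.4 CPM and 17.8 and 12.7 CPM with cisplatin and 27.9 and 29 CPM and 10.9 and 11.6 CPM in the controls. The remaining death-linked members had changes of 0.54 (Tnfrsf10b), 0.82 (Eda2r), 0.60 (Perp), 0.33 (Aen), 0.28 (Phlda3) and -0.05 (Ei24), none of them called.

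Mdm2, the ubiquitin ligase that restrains p53, was at 104 and 128 CPM against 80.6 and 82.5 CPM (0.50 ± 0.40). Gdf15, a secreted stress hormone, was at 8.26 and 4.88 CPM against 1.38 and 1.46 CPM (2.18 ± 0.69, adjusted p = 0.322), the largest change of the list. The sestrins Sesn1 and Sesn2, sensors of stress that curb growth, were at 64.3 and 122 CPM and 27.8 and 25.5 CPM with cisplatin and 48.6 and 45.8 CPM and 15.9 and 16.8 CPM in the controls. Plk3 and Btg2, a stress kinase and an anti-proliferative factor, were at 12.8 and 12.8 CPM and 193 and 191 CPM against 8.16 and 6.52 CPM and 126 and 129 CPM, with changes of 0.88 and 0.58, while Plk2 was at 57.7 and 53.6 CPM against 66.7 and 68.4 CPM. The DNA repair and nucleotide supply members Ercc5, Polk and Rrm2b had changes of 0.59, 0.17 and 0.25, and the others 0.16 (Ccng1), -0.19 (Zmat3), 0.52 (Ddit4l) and 0.19 (Ak1).

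In kidney 10 of the 26 rose, where 2.33% of all genes did, and in liver 4 rose, where 0.73% did. The difference of the response between lung and kidney was tested against 0 and passed in 3 of the 26 (0.163% of all genes passed). Plk3 changed by 6.71 ± 0.23 in kidney, from 4.67 and 3.74 CPM in its controls to 435 and 437 CPM, and the difference of lung minus kidney was -5.83 ± 0.28 (adjusted p = 2.30e-05). For Plk2 it was -3.14 ± 0.39 (adjusted p = 0.0157) and for Btg2 -2.37 ± 0.27 (adjusted p = 0.0132). For Cdkn1a the difference was -2.43 ± 1.02 and did not pass (adjusted p = 0.58), which at this standard error does not show that the organs respond alike.

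**Figure D4:**
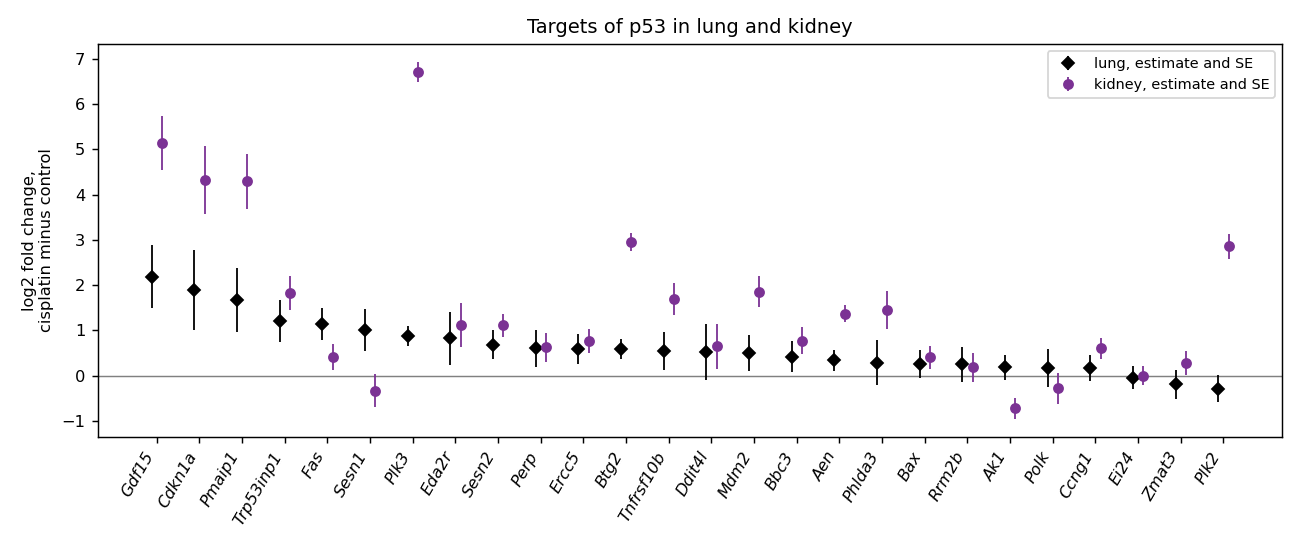
Log2 fold change (cisplatin minus control) with its standard error for 26 p53 targets in lung (black diamonds) and kidney (purple circles), ordered by the lung value. The lung values run from 2.18 for Gdf15 to -0.29 for Plk2, and Plk3, at 0.88 in lung, is at 6.71 in kidney.

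Genes that glucocorticoid hormones induce, which also rise in stressed animals, had the highest median of the response lists in lung, 1.30 over 16 genes. Both cisplatin libraries were above both controls in 14 of the 16, and in 34.7% of all genes tested. By edgeR 0 were called, with 7 higher at an unadjusted p under 0.05, and DESeq2 with the controls summed called 8 higher. Ddit4, an inhibitor of the growth kinase mTOR, was at 87.2 and 169 CPM against 27 and 26 CPM (2.28 ± 0.42, adjusted p = 0.0629), the smallest adjusted p of any gene that was higher. Cebpd, a transcription factor of the acute phase, was at 121 and 149 CPM against 52.8 and 50.9 CPM (1.39 ± 0.24, adjusted p = 0.0691). Dusp1, a phosphatase of stress kinases, was at 243 and 304 CPM against 89.1 and 86.1 CPM (1.65 ± 0.32, adjusted p = 0.0845), and Arrdc2 at 25.5 and 29 CPM against 9.46 and 8.79 CPM (1.60 ± 0.31, adjusted p = 0.0838).

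Tsc22d3, the glucocorticoid-induced leucine zipper, was at 624 and 851 CPM against 257 and 263 CPM (1.5 ± 0.45, adjusted p = 0.306). Errfi1, a brake on the EGF receptor, was at 379 and 531 CPM against 142 and 145 CPM (1.66 ± 0.49, adjusted p = 0.279), and Sgk1, a hormone-induced kinase, at 345 and 311 CPM against 132 and 129 CPM (1.34 ± 0.32, adjusted p = 0.176). In all of these the second cisplatin library was the higher of the pair, except Sgk1. The list median was 1.00 in kidney, where 4 rose and 1 fell, and 1.08 in liver, where 2 rose. Of all genes tested 2.33% rose and 2.17% fell in kidney, and 0.73% rose in liver. Hormone levels were not measured.

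The circadian clock is a loop of transcription factors that sets daily rhythms in most tissues, and Per1 and Ciart are among the genes the study names for lung. Of 21 in the list 20 were tested, with a median of 0.02, and edgeR called 0, with 2 higher at an unadjusted p under 0.05, while DESeq2 called 2 higher. Per1, a repressor of the clock that hormones and cAMP also induce, was at 137 and 118 CPM with cisplatin and 48.7 and 43.1 CPM in the controls (1.51 ± 0.54, adjusted p = 0.45). Ciart, another repressor of the clock, was at 8.89 and 9.01 CPM against 3.62 and 2.93 CPM (1.52 ± 0.40, adjusted p = 0.21). Cry2 was at 81.9 and 84.5 CPM against 56.8 and 56 CPM, and Per2, the partner of Per1, had a change of 0.00. Tef, a clock output factor, and Csnk1d, a clock kinase, were at 233 and 224 CPM and 208 and 195 CPM against 191 and 189.9 CPM and 176 and 166 CPM. The core activators Arntl and Clock had changes of -0.38 and -0.16. In kidney 3 of the 20 rose and in liver 2, where 2.33% and 0.73% of all genes tested rose. Per1 changed by 2.35 in kidney and 2.50 in liver (adjusted p = 0.0183 and 0.0149 by edgeR).

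Of 13 genes that the study names for lung, which were picked from these libraries and are not independent evidence, 11 were higher in both cisplatin libraries and 2, Dock1 and Dennd1a, lower in both. Their median was 0.87, and besides Dock1 none was called. Of all genes tested 34.7% were above both controls and 35.7% below both. Id1, an inhibitor of differentiation factors, was at 156 and 118 CPM against 62.6 and 60.3 CPM (1.17 ± 0.37), and Sik1, a salt-inducible kinase, at 135 and 149 CPM against 70.6 and 70.9 CPM (1.01 ± 0.27). Klf9, a glucocorticoid-induced factor, was at 322 and 352 CPM against 189.5 and 187 CPM, Sirt1, a deacetylase, at 70.5 and 67.8 CPM against 37.8 and 38.7 CPM, and Adamts1, a matrix protease, at 106 and 93.1 CPM against 52 and 55.2 CPM. Ddx5, an RNA helicase, was at 1178 and 1262 CPM against 699.6 and 724 CPM, and Fzd4, a Wnt receptor of vessels, at 261 and 347 CPM against 173 and 178 CPM. DESeq2 with the controls summed called 4 of the 13 higher and 2 lower.

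**Figure D5:**
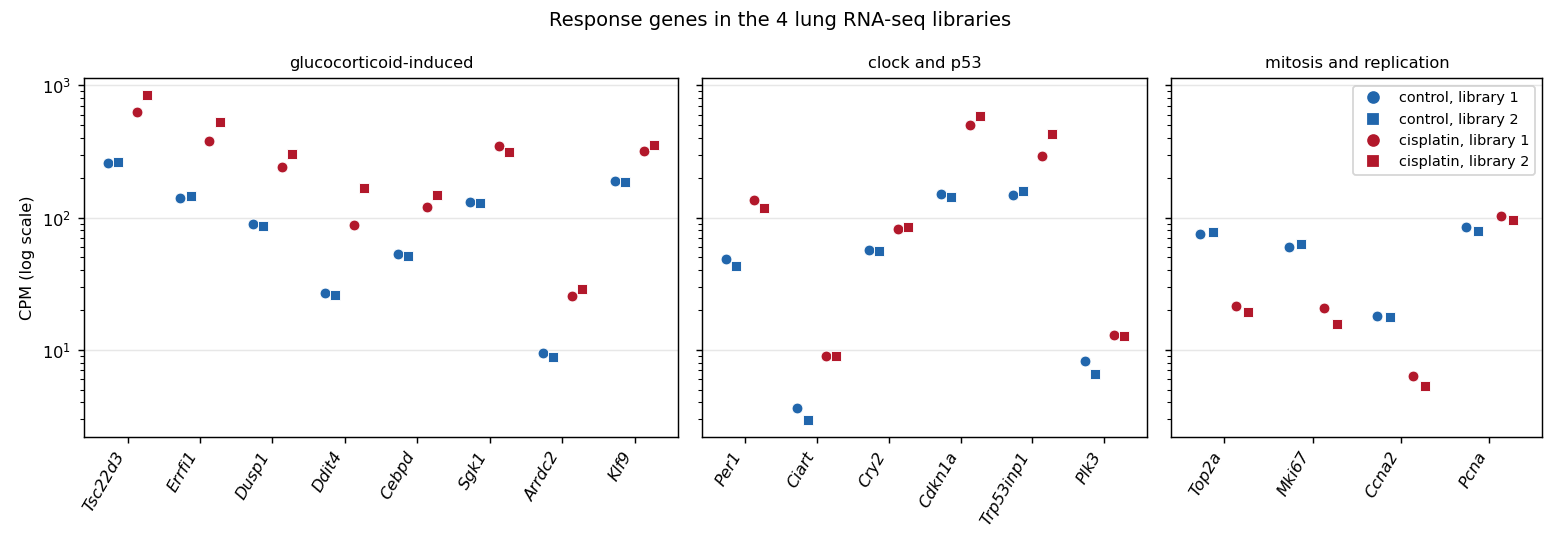
CPM on a log axis of response genes in each lung library, with controls in blue and cisplatin in red, circles for library 1 and squares for library 2. The glucocorticoid-induced and clock genes shown, Cdkn1a, Trp53inp1 and Plk3 are higher in both cisplatin libraries, Top2a, Mki67 and Ccna2 are lower in both, and Pcna is slightly higher.

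Immediate-early genes, which respond to stress within minutes, had a median of 0.34 over 24 genes in lung, 2.51 in kidney and 1.23 in liver. In lung edgeR called 0, with 3 higher at an unadjusted p under 0.05, while 19 rose in kidney and 10 in liver. Of all genes tested 2.33% rose in kidney and 0.73% in liver. In lung 13 of the 24 were above both controls and 4 below both, against 34.7% and 35.7% of all genes tested. Changes in lung were positive in 19 and negative in 5, from -1.39 to 1.74. Fos, part of the AP-1 factor, was at 40.9 and 58.5 CPM against 15.7 and 14.6 CPM in lung (1.74 ± 0.51), and Klf4, a factor of vessels and epithelia, at 261 and 230.1 CPM against 145 and 149 CPM. Klf6 and Jun, also factors of early responses, were at 431 and 403 CPM and 353 and 295 CPM against 301 and 313 CPM and 240.0 and 239 CPM. The test of the difference between lung and kidney, added for this list after its values were seen, passed in 6 of 24. It passed in 0.163% of all genes tested. Atf3, a stress-induced repressor, changed by 1.10 in lung and 6.19 in kidney, and Myc, the growth regulator, by -0.32 and 3.06.

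In the other response lists no gene passed. Over 115 tested genes of 6 lists edgeR called 0, with 0 at an unadjusted p under 0.05 in either direction, and DESeq2 called 1 lower. The medians were 0.46 for 25 interferon-stimulated genes, -0.16 for 18 NF-kB targets and chemokines, -0.24 for 16 heat shock chaperones, 0.14 for 16 genes of the integrated stress response, 0.48 for 13 metallothionein and NRF2 targets and 0.08 for 27 genes of nucleotide excision repair, the pathway that removes cisplatin adducts. In the interferon list Gbp2 and Bst2 were at 162 and 143 CPM and 104 and 110.2 CPM against 105 and 109.9 CPM and 89.7 and 88 CPM. Nfkbia, the inhibitor of NF-kB, was at 243 and 316 CPM against 153 and 152 CPM, and the adhesion molecule Icam1 at 482 and 322 CPM against 383 and 377 CPM. The chaperones Hsp90ab1 and Hspa8 were at 2102 and 2268 CPM and 924 and 892 CPM against 2385 and 2388 CPM and 1179 and 1191 CPM. Atf4 and Atf5 of the stress response were at 263 and 211 CPM and 174 and 142 CPM against 190.5 and 194 CPM and 141 and 136 CPM. Prdx1 and Gclc, which act in redox defence, were at 524 and 578 CPM and 391 and 527 CPM against 429 and 444 CPM and 229 and 236 CPM. Ddb1 and Rad23b of the repair pathway, a damage sensor subunit and a partner of Xpc, were at 411 and 366 CPM and 158 and 151 CPM against 363 and 363 CPM and 148 and 151 CPM.

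Genes of mitosis and DNA replication were lower with cisplatin, with a median of -1.22 over 33 genes. Of the 33, 28 were below both controls, as were 35.7% of all genes tested. By edgeR 0 were called, with 20 lower at an unadjusted p under 0.05, and DESeq2 called 13 lower. Top2a, the topoisomerase of dividing cells, was at 21.6 and 19.2 CPM against 74.7 and 78.1 CPM (-1.92 ± 0.34, adjusted p = 0.0604). Mki67, the marker of dividing cells, was at 20.6 and 15.5 CPM against 60.4 and 63.5 CPM (-1.80 ± 0.38, adjusted p = 0.107), and Ccna2, cyclin A2, at 6.28 and 5.31 CPM against 18.2 and 17.7 CPM (-1.62 ± 0.27, adjusted p = 0.0532). Pcna, the replication clamp, was the exception at 103 and 96.1 CPM against 85.4 and 79.4 CPM. The list median was -0.11 in kidney and -0.67 in liver. The thymocyte and B cell lists, whose cells can divide, were low in the same 2 libraries, and their part in the mitosis values was not tested.

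The XR-seq libraries, which count short DNA pieces cut out around adducts and come only from cisplatin-treated mice and were used for the marker lists. The 2 lung XR-seq libraries held 42617016 to 59779770 reads on genes. The B cell list summed to 17.4 and 13 CPM on the transcribed strand in lung and to 302 and 363 CPM in spleen. In kidney it summed to 33.0 and 29.5 CPM and in liver to 13.2 and 17.4 CPM, so lung was not above these organs. T cell genes summed to 277 and 256 CPM in lung and 485 and 474 CPM in spleen, with 79.6 and 76.9 CPM in kidney. Thymocyte genes summed to 16.1 and 11.5 CPM in lung and 41.1 and 42.4 CPM in spleen, with 6.74 and 6.20 CPM in kidney. In liver these 2 lists summed to 200 and 175 CPM and to 37.8 and 31.2 CPM. For brown fat markers the sums were 51.4 and 49.0 CPM in lung, 113 and 118 CPM in kidney, 152 and 135 CPM in liver and 34.0 and 38.4 CPM in spleen. Endothelial genes summed to 1110 and 1140 CPM in lung and to 130 to 495 CPM in the other organs. Repair reads also depend on the number of target sites in a gene, so these sums are not levels of RNA, and no control exists for them.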

How the data were processed

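Poly-A RNA of lung was sequenced as 50-bp read pairs. Per the labels and the study's methods, the authors aligned reads with STAR to mm10, removed reads of mapping quality under 20, pairs of unexpected orientation or over 500 kb apart and reads with over 10 positions, and counted them with featureCounts (versions not given in the sources used here). The deposited values are raw counts per gene, without normalization, for 25059 genes, of which 25041 matched an entry of the GENCODE M21 annotation (GRCm38). The library kit does not mark strand, so reads of overlapping or antisense genes cannot be told apart.

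Counts were analysed with edgeR 4.0.16 in R 4.3.3. The lung and spleen control pairs (dispersion index of 3 or below) were summed. Genes with a mean CPM of the 2 lung groups of at least 0.5 were kept, TMM factors were computed within each organ, and glmTreat tested against a log2 change of 0.4 with Benjamini-Hochberg adjustment over all genes tested. DESeq2 1.42.0 was an alternative. Tables and plots used Python 3.11.15 with pandas 2.3.3, numpy 2.4.6, scipy 1.17.1 and matplotlib 3.10.9. Classes of length use the annotated span. The fit was also run on simulated data, where it missed most changes of 1 in log2. A gene that was not called is not shown to be unchanged.

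Named genes were all p53 targets, all genes the study names for lung, up to 4 called genes of each other list (or 2 of highest CPM where none was called), and the 10 largest rises and falls among called protein-coding genes with a mean CPM of at least 5 and no overlap of groups, over all genes and again outside the spleen-high class and marker lists. All other genes that the text names, Ddit4, Adipoq, Cd3e, Mki67, Fos and Atf3 among them, were chosen after their values were seen. Members and lists were chosen with earlier results of these data known. Motifs were to be read in promoters of called p53 and clock genes, and no such gene was called. XR-seq counts, deposited as reads per gene and strand, were scaled to CPM of reads on genes. Damage-seq was not used here. Values of some genes are not reported here. The study's methods name a batch correction without saying which RNA libraries form a batch, so none was fitted. The study describes its replicates as biological but does not say which mice gave which library, so p-values measure the spread between libraries.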

Additional observations from a re-analysis of the deposited data

Results flagged for a closer look

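In 3 p53 targets and 6 immediate-early genes the change with cisplatin differed between lung and kidney, each lower in lung. The test was the interaction test of edgeR against 0, which 0.163% of all genes tested passed. The difference of lung minus kidney in log2 was -5.83 ± 0.28 for Plk3, -3.14 ± 0.39 for Plk2 and -2.37 ± 0.27 for Btg2 (adjusted p = 2.30e-05, 0.0157 and 0.0132). It was -5.09 ± 0.64 for Atf3, -3.39 ± 0.28 for Myc and -3.23 ± 0.50 for Egr2 (adjusted p = 0.0157, 8.66e-04 and 0.0473). For Jun, Junb and Klf6 it was -2.62 ± 0.35, -2.41 ± 0.35 and -2.69 ± 0.33 (adjusted p = 0.0197, 0.0333 and 0.0157). Kidney has 2 control samples and lung 1, and the error of the lung change rests on the spread of all organs.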

How the results depend on the processing

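The calls depend on how the near-identical controls are counted. With the control pairs kept as 2 samples, 624 genes were called (42 higher, 582 lower), among them 2 p53 targets, 12 B cell markers, 200 spleen-high genes and 413 outside the spleen-high class and the marker lists, and the difference from kidney passed in 5 p53 targets instead of 3. On the lung libraries alone the counts were 258 (higher, lower, p53, B cell, spleen-high and outside: 13, 245, 2, 10, 74 and 172) with the controls summed and 1569 (263, 1306, 6, 13, 347 and 1195) with them kept apart. DESeq2 gave 516 (50, 466, 3, 13, 155 and 345) with the controls summed and 1377 (216, 1161, 4, 13, 337 and 1010) with them kept apart. Of the 74 calls, 64 to 74 were shared with each of these. The cause was not tested. Testing against 0 called 152 genes (5 higher, 147 lower, 44 spleen-high, 105 outside), testing against 1 called 5 (all lower, 0 B cell markers, 2 spleen-high, 3 outside), and without a filter 1 gene was higher.

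A fit with the replicate number within each organ as a replicate block, which also keeps the control pairs as 2 samples, called 1125 genes (128 higher, 997 lower, 6 p53 targets, 13 B cell markers, 307 spleen-high, 799 outside), against 624 genes and 2 p53 targets without the block on the same samples, and shared all 74 calls. Differences between same-numbered libraries of the treated and control groups correlated at 0.0897 in lung, 0.625 in kidney, 0.504 in liver and 0.301 in spleen. No source says that a number marks a shared mouse or day, and each organ has 2 numbers, so the numbers were not taken to pair the samples.

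Leaving out 1 library gave 0 to 79 calls, all lower (B cell markers 0 to 5, spleen-high 0 to 24, outside 0 to 52), with 0 by edgeR without either cisplatin library. The median of genes of 200 kb or more stayed between -0.89 and -0.83. Scaling by size factors, by genes outside the spleen-high class and marker lists, and filterByExpr gave 73 to 85 calls, none higher. Of the named genes only uncalled ones changed sign: over the left-out libraries their log2 changes ran Phlda3 -0.045 to 0.56, Polk -0.12 to 0.42, Jchain -0.089 to 0.73, Gzma -0.83 to 0.33, Csf1r -0.32 to 0.19, Ltf -0.15 to 0.15, Ppbp -0.47 to 0.19, Itga2b -0.18 to 0.51, Sftpc -0.0059 to 0.27, Ager -0.11 to 0.30, Emp2 -0.18 to 0.16, Scgb1a1 -0.15 to 0.23, Cyp2f2 -0.0007 to 0.49, Foxj1 -0.026 to 0.46, Cdh5 -0.11 to 0.041, Npnt -0.38 to 0.094, Msln -0.52 to 0.092, Chad -0.14 to 0.21, Comp -1.03 to 0.43, Sbsn -0.31 to 0.052, Tg -0.16 to 0.27, Icam1 -0.22 to 0.34, Ighm -0.29 to 0.47, Junb -0.11 to 0.30, Egr2 -0.24 to 0.0067, and under other settings Ltf was at -0.0026, -0.0023, -0.0091, -0.025, -0.0063 and Emp2 at 0.0089, 0.004, 0.0065. Without control library 2 Pax5, Pde4d and Pitpnc1 were no longer called, with filterByExpr Pax5, without a filter Pde4d, and on summed lung libraries alone Ptger3. The spread between control lungs is not measured, which limits every call.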
